A study of Mus musculus with 37 samples.

Results

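Genes known to take on a fetal or wall stress pattern in the adult ventricle were followed after cardiac arrest in mice. They were the 8 genes Nppa, Nppb, Myh6, Myh7, Acta1, Ankrd1, Sprr1a and Rcan1. Members were chosen by gene symbol, which gave 8 of the 56748 genes in the deposited table, and all 8 were among the 16579 genes tested. The data were bulk RNA sequencing of homogenised left ventricle, with the apex discarded, from 37 libraries of young male and female C57BL/6J mice aged 8 to 10 weeks. Naïve mice (5 libraries) received isoflurane anaesthesia alone, with neither intubation nor injection. Adr mice (4 libraries at each of 0.5, 1, 3 and 7 days), which the labels call sham, were anaesthetised, intubated and ventilated and had saline and then adrenaline injected into the left ventricle. Arrest mice (4 libraries at each of the same times) had potassium chloride injected into the left ventricle, 8 minutes of asystole, and resuscitation with adrenaline and chest compressions. No group separated the needle or ventilation from adrenaline. Naïve mice had neither, so what Adr and Arrest shared against Naïve cannot be told apart from needle, ventilation or adrenaline. The labels give no animal numbers, and p-values measure the spread between these libraries. In the coordinates of the authors' table, whose build is not given in the sources used here, Nppb (ENSMUSG00000029019) lies at chr4:148070245-148071662 and Nppa (ENSMUSG00000041616) at chr4:148085179-148086536, both on the plus strand, and the others lie on the minus strand. Myh6 (ENSMUSG00000040752) is at chr14:55179378-55204384 and Myh7 (ENSMUSG00000053093) at chr14:55208141-55232083, 3756 bases apart. Acta1 (ENSMUSG00000031972) is at chr8:124618508-124621490, Ankrd1 (ENSMUSG00000024803) at chr19:36089361-36097499, Sprr1a (ENSMUSG00000050359) at chr3:92391259-92393202 and Rcan1 (ENSMUSG00000022951) at chr16:92188841-92267755.

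The 8 genes answer to stretch and pressure load through different routes. Nppa and Nppb encode atrial and B-type natriuretic peptide, hormones that lower blood volume and pressure through guanylyl cyclase receptors, and both are transcribed in the fetal ventricle and again in the loaded adult ventricle. Myh6 encodes the fast alpha myosin heavy chain of the adult mouse ventricle and Myh7 the slow beta chain of the fetal one, and a shift from the first to the second is the classical isoform switch of overload in rodents. Acta1 encodes skeletal alpha-actin, an actin of the fetal heart. Ankrd1 encodes the cardiac ankyrin repeat protein, which binds titin at the sarcomere and enters the nucleus. Sprr1a encodes a small proline-rich protein of the cornified envelope that gp130 cytokines induce in cardiomyocytes, and Rcan1 encodes a calcineurin inhibitor whose shorter transcript is itself induced by calcineurin and NFAT.

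Proximal promoters of 5 members are printed because they hold the elements these genes are best known for. The sequences are from RefSeq on GRCm38.p6, cover the 200 bases before the annotated start site, and read 5′ to 3′ on the gene's strand. They lie at chr4:147985700-147985899 on the plus strand for Nppb, chr4:148000522-148000721 on the plus strand for Nppa, and chr8:123894776-123894975, chr19:36119845-36120044 and chr3:92485882-92486081 on the minus strand for Acta1, Ankrd1 and Sprr1a. Capitals mark a TATA box (TATAAA), an M-CAT element bound by TEAD factors (CATTCC, or GGAATG on the other strand), a GATA element (AGATAA and AGATAG as well as TGATAA and TGATAG, or their reverse complements), a CArG box bound by serum response factor, or an AP-1 element (TGANTCA).
Nppb: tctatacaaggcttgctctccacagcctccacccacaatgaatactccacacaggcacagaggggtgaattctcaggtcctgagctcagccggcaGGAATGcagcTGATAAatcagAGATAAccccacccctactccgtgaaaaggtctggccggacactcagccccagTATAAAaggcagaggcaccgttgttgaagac
Nppa: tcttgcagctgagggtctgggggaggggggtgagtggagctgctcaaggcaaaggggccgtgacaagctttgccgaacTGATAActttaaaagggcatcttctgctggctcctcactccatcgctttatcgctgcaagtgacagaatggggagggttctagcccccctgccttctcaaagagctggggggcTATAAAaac
Acta1: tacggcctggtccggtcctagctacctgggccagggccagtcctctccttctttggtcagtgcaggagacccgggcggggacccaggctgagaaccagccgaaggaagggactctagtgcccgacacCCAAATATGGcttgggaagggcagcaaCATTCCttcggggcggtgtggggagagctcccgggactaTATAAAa
Ankrd1: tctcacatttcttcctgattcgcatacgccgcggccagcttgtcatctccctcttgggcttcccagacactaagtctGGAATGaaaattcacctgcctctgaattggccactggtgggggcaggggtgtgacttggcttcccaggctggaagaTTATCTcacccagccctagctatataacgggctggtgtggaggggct
Sprr1a: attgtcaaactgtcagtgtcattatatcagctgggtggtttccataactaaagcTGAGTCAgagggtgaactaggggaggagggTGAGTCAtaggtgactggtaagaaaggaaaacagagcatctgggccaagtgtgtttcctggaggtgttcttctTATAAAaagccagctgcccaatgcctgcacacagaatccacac

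Nppb held a TATA box at 31 to 26 bases before its start site, with a pair of GATA elements at 95 to 90 and 84 to 79 and an M-CAT element at 105 to 100. Nppa held a GATA element at 122 to 117 and a TATA match at 9 to 4. Acta1 held an M-CAT element at 46 to 41 and a CArG box at 73 to 64. Ankrd1 held M-CAT elements at 123 to 118 and, upstream of the printed stretch, at 210 to 205, with a GATA element at 47 to 42. Sprr1a held 2 AP-1 elements, at 146 to 140 and 116 to 110, and the second start site of Rcan1 held 1, at 110 to 104. Myh6 and Myh7 each held an M-CAT match near the upstream end of the bases searched. All 8 members had a promoter in the table, and both strands of the 250 bases before each start were searched. Of all 32851 promoters, 12.4% held the TATA letters, 12.6% M-CAT, 26.5% GATA, 6.75% AP-1 and 1.47% CArG, and matched GATA and M-CAT letters do not overlap in the sequences shown. The matches describe the letters and not sites in use.

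Libraries held 13.2 to 30.2 M fragments counted on genes, as recovered from the FPKM (fragments counted per kilobase of transcript, scaled to depth) values. One library stood apart, Adr 3 days replicate 3. Mitochondrial genes took 9.36% of its fragments and 20.8% to 30.9% in the other 36 libraries. The summed level of 9 ventricular cardiomyocyte markers was 2831 FPKM there and 8230 to 17710 FPKM elsewhere, that of 9 atrial markers was 343 FPKM, and that of 7 monocyte and macrophage markers was 2247 FPKM against 256 to 1027 FPKM elsewhere. The methods mention a poor-quality Adr library at 3 days that was excluded, the labels do not mark it, and the main values that Adr 3 days replicate 3 moved are given with and without it. In bulk tissue, fewer cells of a type and less RNA per cell cannot be told apart.

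One member passed the test against Naïve in 1 of 8 comparisons, Nppb in Arrest at 1 day. The test was a moderated limma fit of log2(FPKM + 1) over all genes with Benjamini-Hochberg adjustment, called at an adjusted p of 0.05. There, 1 of 8 members was called against 7.11% of all tested genes, 2 members passed unadjusted, and 2 (Nppa and Nppb) had every library above every Naïve library, which 10.5% of all tested genes did in either direction. In Arrest at 0.5 days 0 of 8 were called (3 unadjusted, 3.2% of all genes called), and Nppb alone lay wholly above Naïve, beside 8.19% of all tested genes wholly apart in either direction. In Adr at 0.5 days 0 of 8 were called (1 unadjusted, 0.187% of all genes called), and in Adr at 1 day 0 of 8 (3 unadjusted, 0.627%). Sprr1a alone lay wholly above Naïve in both, beside 6.32% of all tested genes wholly apart at 0.5 days and 5.24% at 1 day. At 0.5 days its lowest value, 0.199 FPKM, was above Naïve only because Naïve was listed at 0. In Arrest at 3 days 0 members were called (0 unadjusted, 0.139% of all genes), as in Adr at 3 days (2 unadjusted, 0%), Adr at 7 days (0 unadjusted, 0%) and Arrest at 7 days (0 unadjusted, 0%). Without Adr 3 days replicate 3 the share of all genes called was 1.43% in Adr and 5.5% in Arrest at 0.5 days, 2.53% and 10.4% at 1 day, and 1.14% in Arrest at 3 days, and the counts of members called against Naïve stayed at 1 for Arrest at 1 day and 0 elsewhere. The median log2 difference of the 7 members other than Sprr1a, which was listed at 0 in Naïve, was 0.55 and 0.44 in Adr and Arrest at 0.5 days and 0.72 and 0.63 at 1 day, -0.46 (-0.37 without Adr 3 days replicate 3) and 0.32 at 3 days, and 0.18 and 0.17 at 7 days. The median over all tested genes lay between 0.01 and 0.04 in these comparisons. With Sprr1a as fitted the 8-member medians at 1 day were 0.75 in Adr and 0.55 in Arrest. With Sprr1a at its lower bound, a ratio of FPKM means, they were 0.75 and 0.82. That bound in Arrest rested on replicate 1, and there was no bound without it. All 8 comparisons share the Naïve libraries.

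Nppb was the only member called against Naïve. Its levels in Naïve were 376, 278, 311, 534 and 192 FPKM, 338 ± 128 (SD, n = 5). In Arrest at 1 day they were 1881, 2288, 586 and 576 FPKM, 1333 ± 884 (SD, n = 4), with 2 libraries far above the others and all 4 above Naïve. In Arrest at 0.5 days they were 872, 1780, 655 and 631 FPKM, again all above Naïve.
Nppb rose in Arrest at 1 day by 1.78 on the log2 scale (95% CI 0.69 to 2.86, limma adjusted p = 0.0375), and the difference at 0.5 days, 1.48 (95% CI 0.40 to 2.57), had an adjusted p of 0.116. The call at 1 day ended without Arrest 1 day replicate 1 (adjusted p = 0.138) or 2 (0.145), and without Naïve replicate 1 (0.0535), 2 (0.0643), 3 (0.0562) or 5 (0.0898), and it held without Adr 3 days replicate 3 (0.0312). The summed level of the ventricular markers was also higher, at 14101 to 17710 FPKM in Arrest at 1 day and 11052 to 13508 FPKM in Naïve, without overlap. No marker of that list was called there. Without Adr 3 days replicate 3 there were 0 higher calls and 1 lower among the 9, with a median log2 difference of 0.30. The part of these markers in the Nppb result was not tested. Myh6, itself a cardiomyocyte transcript, had 1278 to 1735 FPKM in the same Arrest libraries and 1440 to 1864 FPKM in Naïve. Nppb has a short transcript of 781 bases in the table, and removing the trend of the differences with gene length also ended the call.

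After adrenaline alone, Nppb overlapped the Naïve range at every time. Its levels in Adr were 952, 580, 798 and 197 FPKM at 0.5 days and 901, 809, 247 and 430 FPKM at 1 day. At each of these times 1 or 2 libraries sat within the Naïve range and the others above it. At 3 days they were 563, 263, 227 and 45.2 FPKM, the third being the library set apart and the fourth the lowest Nppb value of the series. By 7 days Adr (346 to 429 FPKM) and Arrest (336 to 498 FPKM) both lay within the Naïve range. Arrest at 3 days had 181, 253, 402 and 526 FPKM, with 1 library just below that range. Arrest exceeded Adr at 1 day by 1.06 (95% CI -0.09 to 2.20, limma adjusted p = 0.776), an interval that holds both no difference and a difference as large as that from Naïve. Within Arrest, every 7-day library lay below every 1-day library, a difference of -1.51 (95% CI -2.65 to -0.36, adjusted p = 0.169), in a comparison where 12.9% of all tested genes were wholly apart.

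**Figure D1:**
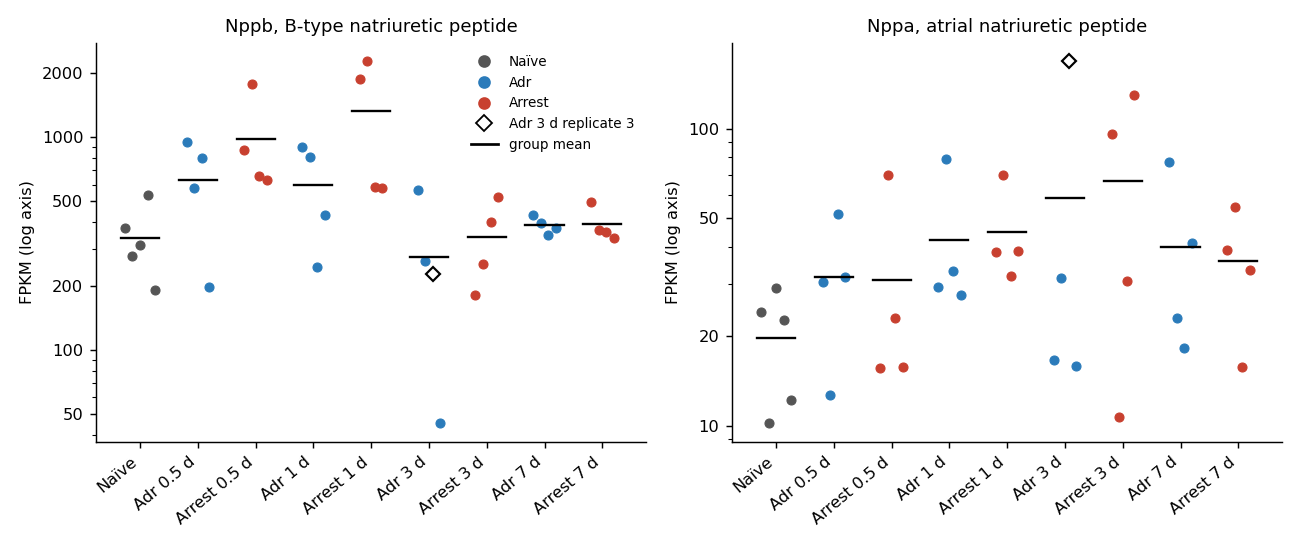
Levels of Nppb and Nppa in FPKM on a log axis in each of the 37 libraries, by group, with the bar at the group mean and an open diamond for Adr 3 days replicate 3. Nppb in Arrest at 1 day (576 to 2288 FPKM) lies above all Naïve libraries (192 to 534 FPKM), and Nppa overlaps Naïve in every group but Arrest at 1 day.

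Nppa, the neighbour of Nppb 13516 bases downstream, was measured at a level far below it. Naïve ventricles had 24.2, 10.2, 29.1, 22.8 and 12.2 FPKM, 19.7 ± 8.15 (SD, n = 5), resting on 140 to 331 fragments. Arrest at 1 day had 38.6, 70.0, 31.9 and 38.8 FPKM, all above Naïve. The difference of 1.18 (95% CI -0.09 to 2.45) did not pass (limma adjusted p = 0.271), nor did that in Adr at 1 day, 1.02 (29.4, 78.9, 33.1 and 27.5 FPKM, adjusted p = 0.456). The highest values came at 3 days. Arrest had 95.7, 10.7, 30.8 and 130 FPKM, with 3 libraries above all Naïve ones, 1 of them barely, and 1 at the lowest Naïve level. Adr had 16.7, 31.4, 169 and 15.9 FPKM, of which 169 FPKM belongs to replicate 3. The Adr difference from Naïve at 3 days, 0.89 (adjusted p = 0.533), was 0.15 without that replicate, and the Arrest difference, 1.27, had an adjusted p of 0.365. Adr at 0.5 days ranged from 12.7 to 51.6 FPKM, Arrest at 0.5 days from 15.7 to 69.8 FPKM, Adr at 7 days from 18.3 to 77.4 FPKM and Arrest at 7 days from 15.7 to 54.6 FPKM. Each of these 4 groups overlapped Naïve.

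Atrial muscle is the main source of Nppa in the adult heart, and atrial markers varied between these ventricular libraries. The list held 9 genes, of which Bmp10, a ligand of the atrial myocardium, was at 0 in all 37 libraries, and the sum of the list was 23.9 to 35.8 FPKM in Naïve. It reached 651 FPKM in Adr 1 day replicate 2, where Myl7, the atrial light chain, was at 445 FPKM, Sln, the atrial calcium pump regulator sarcolipin, at 121 FPKM, and Nppa at 78.9 FPKM. In Adr 3 days replicate 3 it was 343 FPKM with Nppa at 169 FPKM. The next highest sum, 232 FPKM, was in Arrest 7 days replicate 2, with Nppa at 54.6 FPKM, the highest of its group. Adr 7 days replicate 3 had a sum of 159 FPKM with Nppa at 18.3 FPKM, the lowest of its group. Arrest 3 days replicates 1 and 4, with the highest Nppa values after Adr 3 days replicate 3, had sums within the 21.4 to 25.8 FPKM of that group. Myl7 was at 2.62 and 4.43 FPKM in them and at 2.58 to 6.17 FPKM in Naïve. In Arrest at 1 day the sum was 12.9 to 28.8 FPKM, within or below the Naïve range, and Kcnj3, an atrial potassium channel subunit on the list that is named, like the other markers called, after its values were seen, fell by 0.89 on the log2 scale (limma adjusted p = 0.0209). Over the 37 libraries, the Spearman correlation of Nppa with the atrial sum was 0.16, and 0.085 over 36 without Adr 3 days replicate 3, as a description of libraries that share groups and depth. The listed genes did not move together. In Adr 3 days replicate 3 Myl7 was at 225 FPKM, while Kcnj3 (3.88 FPKM) and Gpr22 (1.19 FPKM) were at their lowest of the series. Medians were 9.01 FPKM for Kcnj3, 6.56 FPKM for Gpr22, 4.43 FPKM for Myl7 and 0 for Sln. Low sums thus rested largely on Kcnj3 and Gpr22, and neither they nor the correlation measure atrial tissue alone.

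**Figure D2:**
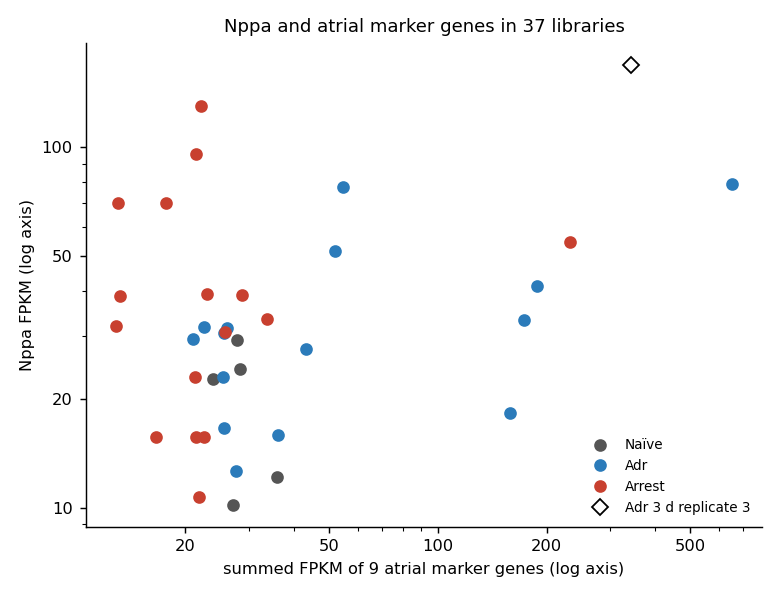
Nppa (FPKM, log axis) against the sum of 9 atrial markers (FPKM, log axis), 1 point per library, coloured by arm. The highest atrial sums (651 and 343 FPKM) belong to Adr libraries and the next (232 FPKM) to Arrest 7 days replicate 2. The 2 high Nppa libraries of Arrest at 3 days (95.7 and 130 FPKM) sit at atrial sums of 21.4 to 25.8 FPKM.

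The receptors, processing enzymes and cGMP phosphodiesterases of the natriuretic peptides did not pass the test. Of 10 tested genes of the list (Npr1 to Npr3, Corin, Furin, Mme and others), 0 were called in any of the 14 paired comparisons, and 1 was, lower in Arrest at 0.5 days, without Adr 3 days replicate 3. Against Naïve, 1, 3, 1, 1, 0, 2, 0 and 0 passed unadjusted in Adr and Arrest at 0.5 days, then 1, 3 and 7 days. Their median log2 difference in Arrest was 0.20 at 0.5 days and 0.13 at 1 day, beside 0.03 over all genes at both times.

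The myosin heavy chains kept their adult order in every library. Myh6 was the most abundant member, at 1463, 1825, 1864, 1479 and 1440 FPKM in Naïve, 1614 ± 211 (SD, n = 5), and Myh7 was at 7.47, 9.86, 8.55, 8.46 and 5.75 FPKM, 8.02 ± 1.53 (SD, n = 5). Myh6 stayed within 931 to 1885 FPKM in all other libraries but Adr 3 days replicate 3, where it was at 379 FPKM. Its largest difference from Naïve, -0.65 in Adr at 3 days (95% CI -1.19 to -0.12, limma adjusted p = 0.262), was -0.18 without that library (adjusted p = 0.878). In Adr at 1 day, with 1042, 1143, 1159 and 1550 FPKM, 3 of 4 libraries lay below Naïve and the difference was -0.41 (adjusted p = 0.487).

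Myh7 differed among the 9 groups in the moderated F test of the limma fit (adjusted p = 0.0491), as 1 of 8 members (3 unadjusted) and 3.89% of all genes did. It was at 13.7, 12.5, 14.2 and 9.64 FPKM in Adr at 0.5 days and 8.95, 16.3, 18.6 and 14.9 FPKM at 1 day, where 3 of 4 libraries lay above Naïve each time. In Arrest it was at 9.58, 11.3, 8.10 and 12 FPKM at 0.5 days and 9.68, 12.1, 7.79 and 8.45 FPKM at 1 day, overlapping Naïve. The Adr difference from Naïve was 0.59 at 0.5 days (95% CI 0.05 to 1.13, adjusted p = 0.309) and 0.77 at 1 day (95% CI 0.23 to 1.31, adjusted p = 0.152). At 3 days Adr had 5.47, 6.73, 2.83 and 5.59 FPKM, with 3 of 4 libraries below Naïve, and Arrest had 22.9, 14.7, 6.28 and 6.76 FPKM, split between 2 libraries above and 2 within the Naïve range. Arrest exceeded Adr at 3 days by 1.02 (95% CI 0.45 to 1.59, unadjusted p = 0.000949), which did not pass over all genes (limma adjusted p = 0.889), and by 0.80 without Adr 3 days replicate 3 (adjusted p = 0.777). Adr at 7 days (5.19 to 12.5 FPKM) was -0.83 from Adr at 1 day (95% CI -1.40 to -0.26, adjusted p = 0.293), and Arrest at 7 days had 8.71 to 11.6 FPKM. The F call was weak. Without Adr 3 days replicate 3 its adjusted p was 0.105, and it held only when the library left out was Adr 0.5 days replicate 4, Adr 1 day replicate 1, Adr 3 days replicate 2, Adr 7 days replicate 1 or Arrest 3 days replicate 1, 3 or 4, so that 30 of 37 single libraries ended it (adjusted p from 0.0503 to 0.105 without them).

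The share of Myh7 in Myh6 plus Myh7, by FPKM and so per base of transcript, put the isoform shift on 1 scale. It was 0.494 ± 0.0677% in Naïve (SD, n = 5), and 0.793 ± 0.172% in Adr and 0.776 ± 0.171% in Arrest at 0.5 days (n = 4 each). At 1 day it was 1.2 ± 0.352% in Adr and 0.641 ± 0.117% in Arrest. Every Adr library at 1 day (0.852% to 1.58%) exceeded every Naïve one (0.398% to 0.568%) and every Arrest library at 1 day (0.480% to 0.752%). At 3 days Arrest spread from 0.377% to 2.24% and Adr averaged 0.499 ± 0.169%, or 0.418% without replicate 3. At 7 days the shares were 0.574 ± 0.329% in Adr and 0.564 ± 0.0558% in Arrest. The share is a ratio of members and was not tested, and even its highest value left Myh6 the main chain by far. In Adr at 1 day the fibroblast sum was 391 to 473 FPKM against 261 to 341 FPKM in Naïve, and the atrial sum was 651, 173 and 43.2 FPKM in replicates 2 to 4, which had the higher Myh7, and 21.0 FPKM in replicate 1. Their part in the share was not tested.

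**Figure D3:**
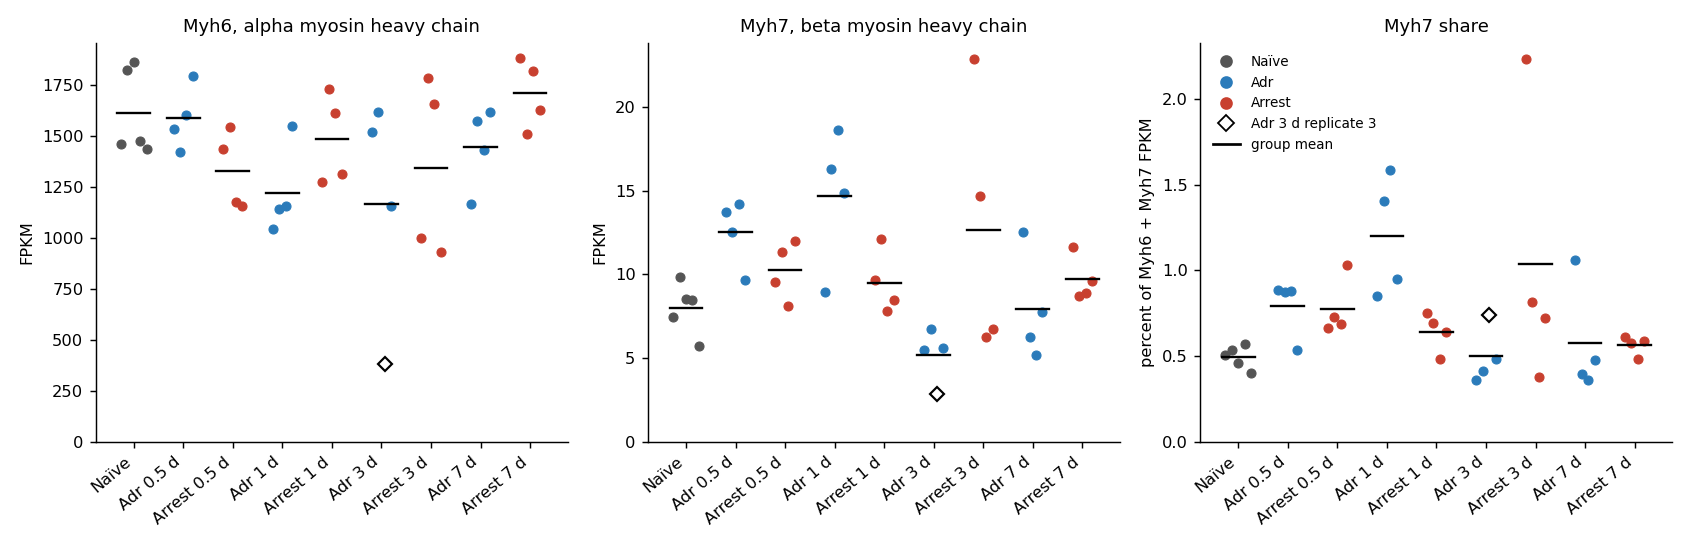
Levels of Myh6 and Myh7 in FPKM and the Myh7 share in percent, on linear axes from 0, by group and library, with the bar at the group mean and an open symbol for Adr 3 days replicate 3. Adr at 1 day has a share of 0.852% to 1.58% against 0.398% to 0.568% in Naïve, and Myh6 at 379 FPKM marks the library set apart.

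Mhrt, an antisense RNA of the Myh7 locus chosen after its values were seen, shared 3780 bases with the span of Myh7. It was at 4.05, 4.68, 3.95, 2.77 and 3.48 FPKM in Naïve and 11.4, 9.63, 5.98 and 9.10 FPKM in Adr at 0.5 days, without overlap, and rose there by 1.05 on the log2 scale (95% CI 0.59 to 1.51, limma adjusted p = 0.0377). The strand counted is not given in the sources used here, so reads of Mhrt and Myh7 cannot be told apart. The call ended without Naïve replicate 1 (adjusted p = 0.0672), 4 (0.0700) or 5 (0.0862) or Adr 0.5 days replicate 1 (0.0966), 2 (0.0813) or 4 (0.139).

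Acta1, a fetal sarcomeric actin, varied widely within every group. Naïve libraries ran from 63.4 to 235 FPKM, 139 ± 71.2 (SD, n = 5), and the group means elsewhere ran from 114 FPKM (Adr at 3 days) to 197 FPKM (Adr at 0.5 days). Its highest value was 394 FPKM in Arrest 0.5 days replicate 2 and its lowest 26.9 FPKM in Adr 3 days replicate 4. In Arrest at 1 day it was at 242, 220, 178 and 143 FPKM, within or just above the Naïve range, a difference of 0.63 (95% CI -0.48 to 1.73, limma adjusted p = 0.552). Acta1 is also the actin of skeletal muscle. The 9 fast skeletal muscle markers summed to at most 7.12 FPKM in any library, Myh4 and Tnnc2 were at 0 in all, and the Spearman correlation of Acta1 with that sum was -0.31 over 37 libraries. In Arrest at 1 day 2 of the 5 markers tested were called, beside 7.11% of all genes. Tnni2 rose by 0.96 (limma adjusted p = 0.0425) and Mylpf fell by 1.07 on the log2 scale (0.0387). A list of other sarcomere isoforms held Actc1, Tnni1, Myh7b, Myl1 and others, and also the ventricular markers Myl2, Myl3, Tnnt2, Tnni3 and Mybpc3. Its values therefore do not describe fetal or slow isoforms alone. Of its 13 genes tested, 0 were called in any paired comparison, with 1 to 5 unadjusted in each comparison with Naïve. Without Adr 3 days replicate 3, 1 was called, lower in Arrest at 1 day. The median difference of the 13 genes from Naïve was -0.53 in Adr at 3 days (-0.15 without that replicate) and between -0.10 and 0.11 in the other 7 comparisons.

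Ankrd1, a nuclear and titin-bound sensor of stretch, was at 91.0, 64.9, 108, 102 and 124 FPKM in Naïve, 98.1 ± 22.1 (SD, n = 5). In Arrest it was at 111, 478, 117 and 261 FPKM at 0.5 days and 257, 315, 96.5 and 188 FPKM at 1 day. In Adr at 1 day it was at 106, 268, 296 and 186 FPKM. In each of these 3 groups 2 or 3 of 4 libraries lay above Naïve and the others within its range. The 3 differences were alike in size, 1.06 (95% CI 0.08 to 2.04), 1.02 (0.04 to 2.0) and 1.05 (0.06 to 2.03), and none passed (limma adjusted p = 0.235, 0.210 and 0.302). At 3 days Arrest had 197, 89.8, 64.6 and 338 FPKM and Adr had 128, 75.4, 123 and 20.7 FPKM, a difference between the arms of 0.98 (adjusted p = 0.907), or 1.24 without Adr 3 days replicate 3 (adjusted p = 0.875). By 7 days Adr ranged from 67.9 to 168 FPKM and Arrest from 74.5 to 143 FPKM.

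Among 22 Z-disc and titin stretch genes tested, 3 rose in Arrest at 1 day and 0 fell, beside 7.11% of all genes called. Csrp3, the muscle LIM protein of the Z-disc, went from 420 ± 24.2 FPKM in Naïve (SD, n = 5) to 765 ± 73.2 FPKM (SD, n = 4), a rise of 0.86 on the log2 scale (limma adjusted p = 0.0101). Its call held without any 1 of the 10 libraries left out in turn. Fhl1, a LIM protein bound to titin, rose by 1.18 (adjusted p = 0.0251), and Myot, the Z-disc protein myotilin, rose by 1.22 (adjusted p = 0.0260). The Fhl1 call ended without Naïve replicate 4 (adjusted p = 0.0514) or Arrest 1 day replicate 1 (0.1) or 3 (0.0581). The Myot call ended without Naïve replicate 2 (0.0751) or Arrest 1 day replicate 1 (0.0806), 2 (0.0596) or 3 (0.0948). The median of the 22 genes in that comparison was 0.14, beside 0.03 over all genes. These are cardiomyocyte genes, and the ventricular marker sum moved with them as given for Nppb. In Arrest at 0.5 days 1 of 22 was called, Fhl1 (1.15, limma adjusted p = 0.0462), beside 3.2% of all genes. That call ended without any 1 of 8 of the 10 libraries left out, namely all Naïve replicates and Arrest 0.5 days replicates 2 (0.266), 3 and 4 (0.0505 to 0.0880 without the 7 others). In the other 6 comparisons with Naïve 0 of 22 were called, with 0 to 10 unadjusted. With Adr 3 days replicate 3 left out the list had 4 calls in Arrest at 1 day, 3 in Arrest at 0.5 days and 1 each in Adr at 0.5 and 1 day, all higher than Naïve.

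Of 25 targets and partners of the mechanosensitive YAP and TEAD factors tested, the family that M-CAT elements bind, 1 rose and 2 fell in Arrest at 1 day, beside 7.11% of all genes called. Crim1, a transmembrane regulator of bone morphogenetic proteins, fell by 0.60 on the log2 scale (limma adjusted p = 0.0161, and 0.0663 without Arrest 1 day replicate 3). Arhgef17, a guanine nucleotide exchange factor, fell by 0.47 (adjusted p = 0.0387), and Nt5e, the ectonucleotidase CD73, rose by 0.71 (adjusted p = 0.0416). These 2 calls were lost without most single libraries, Arhgef17 without Naïve replicates 1, 2, 3 and 5 and Arrest 1 day replicates 1 and 3 (adjusted p up to 0.208) and Nt5e without Naïve replicates 1, 3, 4 and 5 and Arrest 1 day replicates 1, 2 and 3 (up to 0.138). In Arrest at 0.5 days, where 3.2% of all genes were called, 1 gene fell, Crim1, by 0.57 on the log2 scale (limma adjusted p = 0.0387). That call ended without Naïve replicates 1, 3, 4 and 5 or Arrest 0.5 days replicates 1 and 2 (up to 0.155). The list had 1 higher and 3 lower calls at 1 day and 2 lower at 0.5 days when Adr 3 days replicate 3 was left out.

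**Figure D4:**
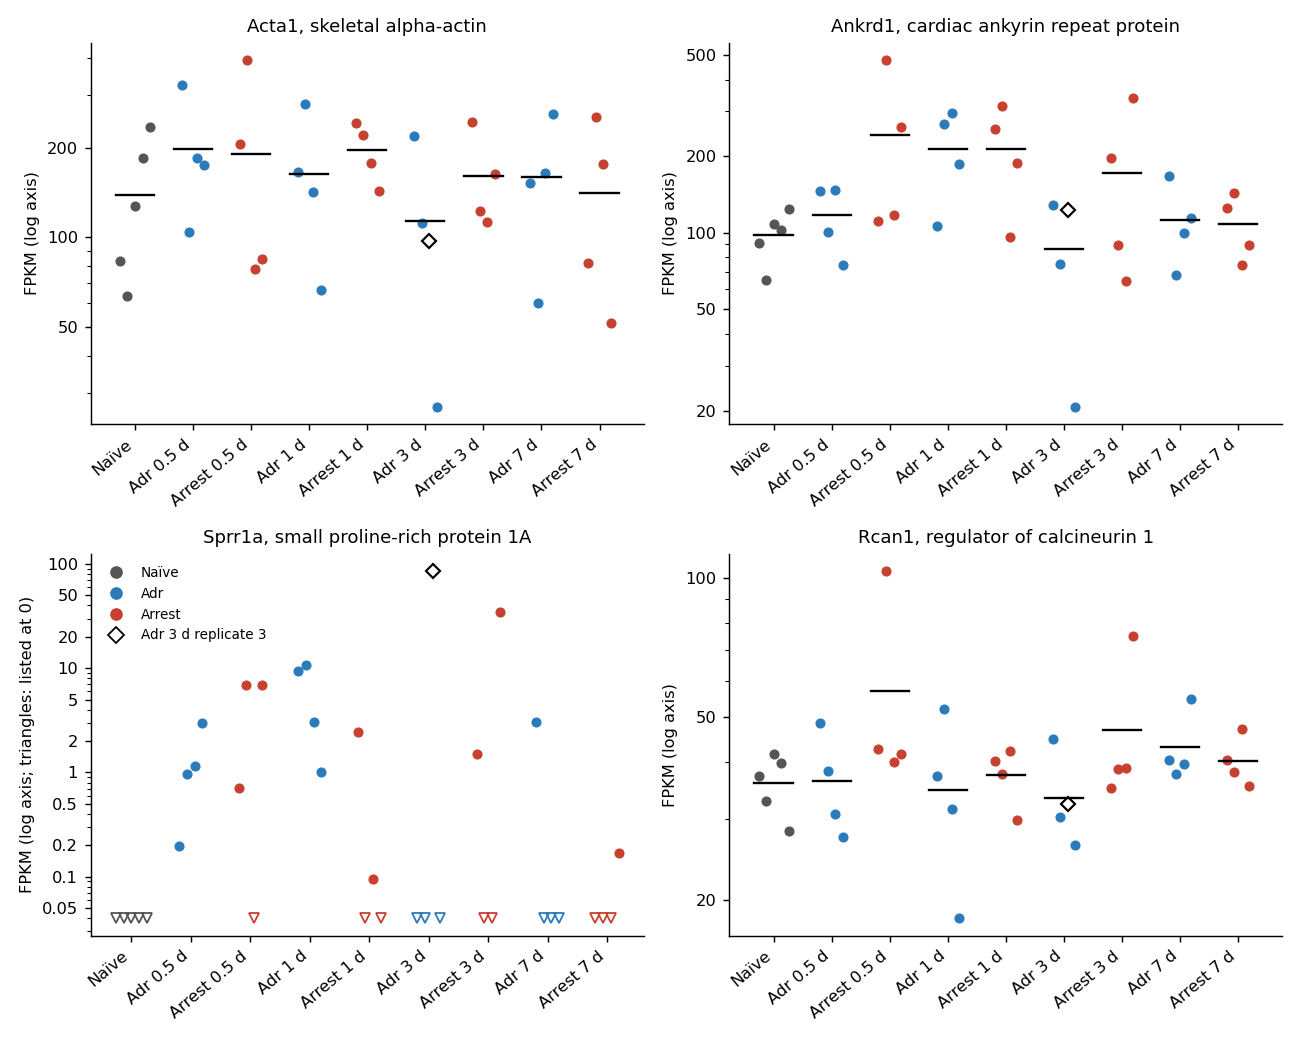
Levels of Acta1, Ankrd1, Sprr1a and Rcan1 in FPKM on log axes by group and library, with the bar at the group mean (none for Sprr1a, where triangles are libraries listed at 0) and an open diamond for Adr 3 days replicate 3. Ankrd1 reaches 478 FPKM in Arrest at 0.5 days, and Sprr1a is at 0 in all 5 Naïve libraries and at 85.2 FPKM in Adr 3 days replicate 3.

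Sprr1a was listed at 0 in all 5 Naïve libraries, where 3 fragments, the most that a count of 0 allows per library, correspond to 0.234 to 0.283 FPKM. That limit covers counting error only. In Adr it was at 0.199, 0.960, 1.16 and 2.97 FPKM at 0.5 days and 9.37, 10.8, 3.08 and 1.01 FPKM at 1 day (21 to 135 fragments), with every library above 0. The lowest of these, Adr 0.5 days replicate 1 with 3 fragments, lay under the Naïve limit. The mean of Adr at 1 day was at least 23.2-fold higher than the Naïve limit, and that at 0.5 days at least 5.06-fold higher (2.96-fold without replicate 4). In Arrest it was at 0.708, 6.97, 0 and 6.85 FPKM at 0.5 days, at least 13.9-fold higher on average, and at 2.46, 0, 0.0960 and 0 FPKM at 1 day. The mean of Arrest at 1 day rested on replicate 1, and without it was 0.0320 FPKM, under the Naïve limit. The test of Adr at 1 day against Naïve gave a limma adjusted p of 0.218, and 0.0580 without Adr 3 days replicate 3. At 3 days single libraries carried the groups: Adr replicate 3 had 85.2 FPKM and the other 3 were at 0, and Arrest had 1.5, 0, 0 and 34.4 FPKM. By 7 days Sprr1a was at 0 in 6 of 8 libraries, with 3.05 FPKM in 1 Adr library and 0.169 FPKM in 1 Arrest library.

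Sprr1a is also a keratinocyte gene. The 8 keratinocyte markers summed to at most 5.05 FPKM in any library, and Krt5, Sprr1b and Sprr2d were at 0 in all 37. Krt14, the basal keratin, rose in Arrest by 1.54 on the log2 scale at 0.5 days (limma adjusted p = 0.0247) and by 1.24 at 1 day (adjusted p = 0.0441). Sprr1a had a Spearman correlation of 0.29 with the keratinocyte sum, 0.47 with the fibroblast sum, 0.40 with the neutrophil sum and 0.38 with the macrophage sum over 37 libraries, whose part was not tested. In Adr at 1 day, the 7 fibroblast markers summed to 391 to 473 FPKM against 261 to 341 FPKM in Naïve.

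The gp130 cytokine pathway, the known inducer of Sprr1a in cardiomyocytes, held the smallest adjusted p of the pathway lists. Of 12 tested genes 3 rose in Arrest at 0.5 days and 3 at 1 day, beside 3.2% and 7.11% of all genes called, and 0 were called in the Adr groups (in time order, 4, 1, 1 and 0 unadjusted). At 0.5 days Osmr, the oncostatin M receptor, went from 2.19 ± 0.689 FPKM in Naïve (SD, n = 5) to 8.74 ± 1.75 FPKM (SD, n = 4), a rise of 1.62 on the log2 scale (limma adjusted p = 0.00105). Stat3, the transcription factor of the pathway, went from 12.4 ± 1.95 to 24.0 ± 2.80 FPKM, a rise of 0.91 (adjusted p = 0.00122). Socs3, its feedback inhibitor, rose by 2.05 (adjusted p = 0.00741, and 0.0552 without Arrest 0.5 days replicate 2). The Osmr and Stat3 calls at 0.5 days held without any 1 of the 10 libraries left out in turn. At 1 day the rises were 1.3 for Osmr (adjusted p = 0.00371), 1.66 for Socs3 (0.0147, ended without Arrest 1 day replicate 1, 0.0620, or 3, 0.0546) and 0.64 for Stat3 (0.0103, ended without Arrest 1 day replicate 3, 0.0506). Socs3 fell by 1.66 on the log2 scale from 1 to 7 days in Arrest (adjusted p = 0.0442, and up to 0.151 without Arrest 1 day replicates 1, 2 or 3 or any 1 of the 4 Arrest 7 days libraries). Without Adr 3 days replicate 3, when 11 genes of the list were tested, 3 were called lower from 1 to 7 days, and the 3 calls at 0.5 and at 1 day were the same in number. All 5 neutrophil markers tested had a positive difference from Naïve in Arrest, with a median of 1.15 at 0.5 days and 1.2 at 1 day, 0 were called (3 and 2 unadjusted), and the summed level of the 7 listed was 5.27 to 32.2 FPKM at 0.5 days and 6.52 to 20.3 FPKM at 1 day against 0 to 10.1 FPKM in Naïve. Their part in the gp130 calls was not tested.

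In no comparison with Naïve was Rcan1 called. Naïve libraries had 37.2, 32.8, 41.7, 39.7 and 28.2 FPKM, 35.9 ± 5.41 (SD, n = 5), and all other group means lay between 33.4 and 56.9 FPKM. The highest mean belonged to Arrest at 0.5 days (42.5, 104, 40 and 41.7 FPKM), where 1 library stood far above 3 near the top of the Naïve range. That difference was 0.54 (95% CI 0.02 to 1.06, limma adjusted p = 0.254), and 0.21 without that library. The same library, Arrest 0.5 days replicate 2, also had the highest Acta1 (394 FPKM) and Ankrd1 (478 FPKM) of all 37 and the highest Nppb (1780 FPKM) and Nppa (69.8 FPKM) of its group. The table gives 1 value for Rcan1, so its transcripts from the separate start sites were not told apart. Of 19 calcineurin and NFAT genes tested, 0 rose and 2 fell in Arrest at 1 day, beside 7.11% of all genes called. Gsk3b, the kinase that opposes NFAT, fell by 0.50 on the log2 scale (adjusted p = 0.0107), a call that held without any 1 of the 10 libraries left out in turn. Camk2d, the main cardiac calmodulin kinase, fell by 0.53 (adjusted p = 0.0184, and 0.0549 without Arrest 1 day replicate 3). In the other 7 comparisons with Naïve 0 of 19 were called, with 1 to 4 unadjusted. Leaving out Adr 3 days replicate 3 gave 1 higher and 2 lower calls in Arrest at 1 day and 1 lower in Arrest at 0.5 days.

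In the fit of all 37 libraries, the transcription factors of the fetal program that were called against Naïve fell, and did so in Arrest. Of 18 tested, 0 rose and 3 fell at 1 day, beside 7.11% of all genes called. Without Adr 3 days replicate 3 there were 1 higher and 3 lower in Arrest at 1 day (10.4% of all genes called) and also at 0.5 days (5.5%). Adr then had 1 lower at 0.5 days (1.43%) and 1 lower at 1 day (2.53%). Mef2a went from 13.1 ± 2.25 FPKM in Naïve (SD, n = 5) to 8.28 ± 0.504 FPKM (SD, n = 4), a fall of 0.60 on the log2 scale (limma adjusted p = 0.00258). Tbx20, a T-box factor of the chambers, went from 9.28 ± 2.38 to 5.32 ± 0.936 FPKM and fell by 0.69 (adjusted p = 0.00488). Both calls held without any 1 of the 10 libraries left out in turn. Mef2c fell by 0.58 (adjusted p = 0.0175, and 0.0508 without Naïve replicate 5 or 0.0918 without Arrest 1 day replicate 3). The same 3 fell in Arrest at 0.5 days (limma adjusted p = 0.0285 to 0.0448), beside 3.2% of all genes called. All 3 calls at 0.5 days ended without Naïve replicate 1 or 5 or Arrest 0.5 days replicate 1 or 2 (adjusted p up to 0.237). Those of Mef2a and Mef2c also ended without Arrest 0.5 days replicate 4, that of Mef2c without Naïve replicate 3, and that of Tbx20 without Naïve replicate 2 or Arrest 0.5 days replicate 3. From 1 to 7 days in Arrest, Mef2a rose by 0.48 (adjusted p = 0.0371) and Tbx20 by 0.62 (adjusted p = 0.0302). Both calls ended without Arrest 1 day replicate 1, 2 or 3 or Arrest 7 days replicate 1, 2 or 4, and that of Mef2a also without Arrest 7 days replicate 3 (adjusted p up to 0.124 for Mef2a and 0.169 for Tbx20). Endothelial markers, whose cells also use Mef2 factors, were called as well in Arrest at 1 day, where Kdr fell by 0.92 on the log2 scale (0.0108) and Cdh5 by 0.42 (0.0182) and Egfl7 rose by 0.43 (0.0237). The summed endothelial level was 146 to 224 FPKM there and 180 to 221 FPKM in Naïve. Kdr also fell in Arrest at 0.5 days, by 0.95 (limma adjusted p = 0.0182), and rose by 1.00 from 1 to 7 days (0.0247). The part of endothelial cells in the Mef2 results was not tested.

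Of 16 other load and injury genes, 1 was called, the small heat shock protein Hspb1. Its calls were in Arrest at 0.5 and 1 day, where 3.2% and 7.11% of all genes were called. It rose from 206 ± 65.9 to 356 ± 53.7 FPKM in Arrest at 1 day, by 0.84 on the log2 scale (limma adjusted p = 0.0209), and by 0.88 at 0.5 days (adjusted p = 0.0285). The first call ended without Naïve replicate 4 (0.0564) or 5 (0.0680) or Arrest 1 day replicate 1 (0.0543) or 3 (0.0933), and the second without Naïve replicate 4 (0.0716) or 5 (0.0822) or Arrest 0.5 days replicate 2 (0.185). With Adr 3 days replicate 3 left out, the list had 3 higher calls in Arrest at 1 day (10.4% of all genes called). It had 2 each in Arrest at 0.5 days (5.5%), Arrest at 3 days (1.14%) and Adr at 0.5 days (1.43%), and 1 in Adr at 1 day (2.53%).

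No member was called between Arrest and Adr at the same time. Of the 8, 0 were called at 0.5 days (0 unadjusted, 0% of all genes called), at 1 day (0 unadjusted, 0%), at 3 days (1 unadjusted, Myh7, 0%) and at 7 days (0 unadjusted, 0.00603%). At 3 days all 8 members had a higher fitted mean in Arrest, with a median of 0.55 beside 0.00 over all genes. Without the Adr library set apart 7 of 8 did, with Myh6 the exception, and the median was 0.80. From 1 to 7 days, 0 of 8 were called within Adr (1 unadjusted, Myh7, 0.0422% of all genes) and 0 of 8 within Arrest (1 unadjusted, Nppb, 1.88% of all genes). The median of the members was -0.30 in Adr and -0.40 in Arrest, beside -0.01 and 0.00 over all genes.

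**Figure D5:**
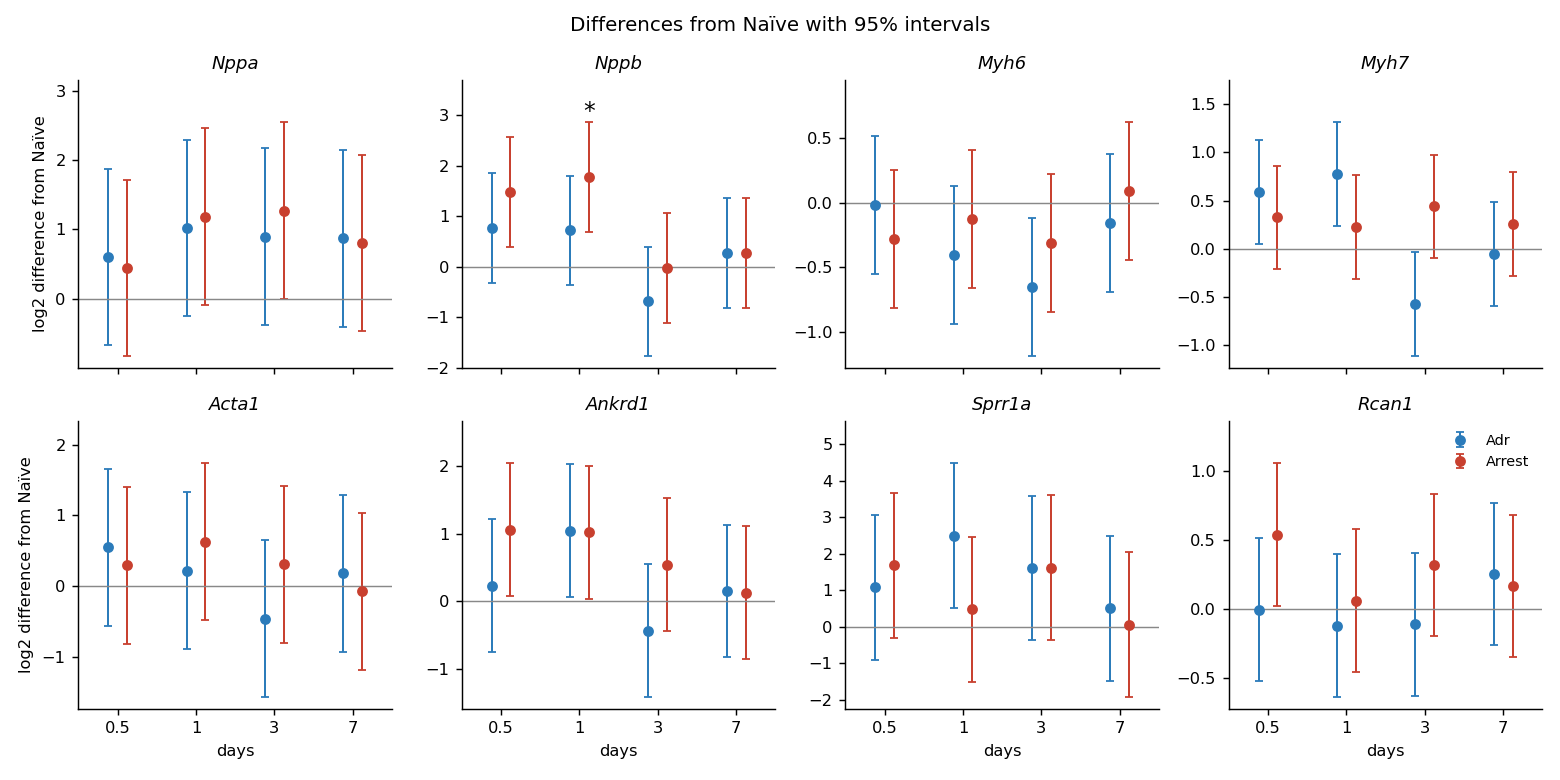
Log2 differences of the 8 members with 95% confidence intervals from the limma fit, for each Adr (blue) and Arrest (red) group against Naïve, by day. Nppb in Arrest at 1 day (1.78, 0.69 to 2.86), marked with an asterisk, is the only difference with an adjusted p of at most 0.05, and Sprr1a, at 0 in Naïve, has the widest intervals.

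Each member had its own order of the groups. Nppb was highest in Arrest at 1 day (mean 1333 FPKM) and lowest in Adr at 3 days (275 FPKM), Nppa highest in Arrest at 3 days (66.8 FPKM) and lowest in Naïve (19.7 FPKM), and Myh7 highest in Adr at 1 day (14.7 FPKM) and lowest in Adr at 3 days (5.15 FPKM). For all 8 members, every pair of groups next to each other in the order overlapped. Within groups, the members varied more than most genes. Their residual SD on the log2 scale lay at the 99.0th percentile of all tested genes for Nppa, 97.9 for Nppb, 98.1 for Acta1, 96.8 for Ankrd1 and 99.9 for Sprr1a, and at 73.7, 76.0 and 73.4 for Myh6, Myh7 and Rcan1.

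Likeness between members across libraries was uneven. Over the 37 libraries, which share groups and depth, the Spearman correlation ran from -0.56 (Myh6 with Sprr1a) to 0.57 (Nppa with Ankrd1), and was 0.16 for the neighbouring genes Nppa and Nppb, 0.51 for Nppb with Rcan1 and 0.03 for Myh6 with Myh7. Myh6 had a Spearman correlation of 0.53 with the ventricular marker sum, -0.74 with the fibroblast sum and -0.61 with the macrophage sum. Nppb had 0.45 with the ventricular and -0.42 with the atrial sum. The genes whose pattern was most like a member's over the 37 libraries were Tnfrsf12a (Spearman correlation 0.82), Apool and Nob1 (both 0.76) for Nppb, Sulf2, Dbn1 (both 0.64) and Wnt9b (0.63) for Nppa, and Pygm (0.83), Nfe2l1 (0.81) and Hspa9 (0.79) for Myh6. They were Ip6k1 (0.69), Sfswap (0.66) and Neat1 (0.65) for Myh7, Flii (0.66), Ccn5 and Nt5m (both 0.59) for Acta1, and Tmbim1 (0.76), Prpf39 (0.69) and Fhl1 (0.68) for Ankrd1. For Sprr1a they were Atp6v0e, Capg (both 0.79) and Lilrb4b (0.78), and for Rcan1 Nutf2 (0.63), Ankrd23 (0.59) and Dusp16 (0.57). Without Adr 3 days replicate 3 the leading gene was another one for Nppa (Rps24-ps3), Myh7 (Sfswap) and Acta1 (Ccn5).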

How the data were processed

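The authors had libraries sequenced by Novogene, aligned reads with HISAT2 and tested with DESeq2. They deposited 1 table of FPKM values for 56748 genes, and the build, annotation, counter and strand are not given in the sources used here. Coordinates of genes are the authors' and are not GRCm38 (2.78% of 52036 shared genes have the same start), whereas promoters are RefSeq's on GRCm38.p6. FPKM times length was a whole multiple of 1 fragment's worth in 100% of values (tolerance 0.1), which gave 13.2 to 30.2 M fragments per library. No 2 libraries were copies (lowest chi-square per gene 11.8 over 58 pairs within groups), and 0 columns were left unused.

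Groups came from the labels. Genes reaching 0.5 FPKM in 4 or more libraries (16579 genes) entered 1 linear model of log2(FPKM + 1) (limma 3.58.1, R 4.3.3) with group means, a trend of the variance with level and without covariates. P-values were adjusted by Benjamini-Hochberg over all genes tested within each comparison, with a threshold of 0.05. Fold changes of low genes are understated on this scale. The model was tested on simulated data. Correlations, shares and marker sums carry no test. The alternatives were other scalings, filters, weights, covariates, a count model and leaving out each library in turn. A library left out was followed in the F test and the comparisons of its own group, and Adr 3 days replicate 3 in all. Named genes were the 8 members, at most 3 called genes of each list by adjusted p, and the 3 genes with the highest Spearman correlation with each member. The members and lists were chosen with earlier results of these data known.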

Additional observations from a re-analysis of the deposited data

Results flagged for a closer look

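In 13 of 80 groups of values tested with Dixon's test (Nppa, Nppb, the other members and the Myh7 share within each group), 1 library stood apart from the rest. Chance gives about 1 in 20 for normally distributed values. The test was run on FPKM and percent without logs, so the excess over that rate is no measure against chance. In 3 of the 13, all for Sprr1a, every other library was at 0 and the gap filled the range by construction, so the flag says no more than that 1 library had a value, and the other 77 groups gave 10. Adr 3 days replicate 3 and Arrest 0.5 days replicate 2 account for 2 each. Nppa stood out at 69.8 FPKM in Arrest 0.5 days replicate 2 (the next library had 23.0 FPKM), at 78.9 FPKM in Adr 1 day replicate 2 (next 33.1 FPKM) and at 169 FPKM in Adr 3 days replicate 3 (next 31.4 FPKM). Sprr1a did so at 85.2 FPKM in Adr 3 days replicate 3 (next 0), 34.4 FPKM in Arrest 3 days replicate 4 (next 1.5 FPKM), 2.46 FPKM in Arrest 1 day replicate 1 (next 0.0960 FPKM), 3.05 FPKM in Adr 7 days replicate 1 (next 0) and 0.169 FPKM in Arrest 7 days replicate 4 (next 0).

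Rcan1 stood out at 104 FPKM in Arrest 0.5 days replicate 2 (next 42.5 FPKM), 74.8 FPKM in Arrest 3 days replicate 4 (next 38.8 FPKM) and 54.7 FPKM in Adr 7 days replicate 4 (next 40.3 FPKM). The Myh7 share was low at 0.534% in Adr 0.5 days replicate 4 (next 0.873%) and high at 1.06% in Adr 7 days replicate 1 (next 0.475%). Arrest 3 days replicate 4 also had the highest Nppa (130 FPKM) and Ankrd1 (338 FPKM) of its group. The reasons were not tested.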

How the results depend on the processing

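Counts of called members were recomputed in 15 comparisons under 13 other settings and without single libraries, as were 50 single differences, 22 of them of members. Of 194 counts under other settings 180 were unchanged, and of 169 without a library 134 were. The reported count was 0 in every comparison but Arrest at 1 day against Naïve and the F test. Most unchanged counts were thus a 0 that stayed 0, and they do not describe the calls themselves, which are given below. Of 1235 single values 989 kept their direction and side of the threshold, 236 became weaker, 7 stronger and 3 reversed.

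The Nppb call in Arrest at 1 day gave a count of 1 member, and 0 under quantile normalization, no filter on low values, removal of the gene length trend, the number in the label's description as a covariate, a fit of only the 2 groups compared and a replicate block. Leaving out single libraries gave 0 to 1. The log2 difference of Nppb there stayed between 0.80 and 1.96 under the other settings, and between 1.425 and 2.088 without single libraries. With the replicate block that difference was 1.595 (limma adjusted p = 0.0717). Replicate numbers did not pair the libraries (median correlation of deviations 0.00 for a shared number, lowest -0.29). The Myh7 call in the F test went from 1 member to 0 under quantile normalization, no filter, the description number and the replicate block, and the count was 2, with Nppb, under quality weights and limma-voom, and 0 to 2 without single libraries. Quality weights gave 1 member in place of 0 from 1 to 7 days, Myh7 in Adr (adjusted p = 0.0281) and Nppb in Arrest (0.0267). With the description number, whose meaning the labels do not give, Nppa in Arrest at 1 day (-0.15) and in Adr at 3 days (-0.53) and Acta1 in Arrest at 1 day (-0.15) reversed, and calls over all genes in Arrest at 1 day went from 1179 to 34, where other settings gave 768 to 1947 and single libraries left out 486 to 1711. The numbers ran from 116 to 127 in Naïve and from 70 to 95 in Arrest at 1 day, without overlap. In that comparison number and group cannot be told apart. The causes of the other changes were not tested. The Myh7 share by fragments instead of FPKM was 0.631% in Naïve, 1.01% and 0.991% in Adr and Arrest at 0.5 days, 0.820% in Arrest at 1 day and 0.721% in Arrest at 7 days. With 4 libraries per group, 95% intervals are wide for Nppa, Nppb, Acta1, Ankrd1 and Sprr1a, so that changes smaller than these intervals were not detectable. Sprr1a rests on few fragments.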
